A study of Mus musculus with 12 samples.

Results

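Gene expression was compared in the axillary lymph node, the node that drains the skin of the forelimb and upper trunk, between mice that lack both apolipoprotein E and apolipoprotein A-I (DKO) and mice of the same double deficiency that overexpress human apolipoprotein A-I (DKO/hA-I). The 6 node libraries, 3 of each genotype, were taken by tissue and genotype from the 12 poly(A) RNA libraries of the series, of which the other 6 are spleens. Mice of both genotypes therefore carried the 2 gene deficiencies, were 30 weeks old and ate normal laboratory diet, and only the human transgene separated them by design. The comparison asks which genes of a lymph node differ when human apoA-I is absent from animals that also lack apoE. The sources used here do not give the promoter of the human transgene, and human APOA1 was not analysed here. Each library has its own animal code. The codes of the 3 DKO nodes share a middle number that no DKO/hA-I node has, so the genotype and whatever that number marks cannot be told apart. Directions are written as DKO relative to DKO/hA-I throughout.

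ApoA-I is the main protein of high density lipoprotein and accepts cholesterol that macrophages export through the transporters ABCA1 and ABCG1. ApoE lets the liver clear lipoprotein remnants by binding its receptors. A macrophage that takes in more cholesterol than it exports stores it as cholesteryl ester in droplets and becomes a foam cell, the cell of arterial plaque and of xanthoma, a lipid deposit of the skin. A lymph node filters lymph through sinuses lined by macrophages, holds B cells and T cells on a scaffold of reticular stromal cells, and lies embedded in fat.

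The node libraries held 5911835 (DKO replicate 2) to 11950825 (DKO replicate 3) counts. In DKO replicate 2 a level of 3 counts corresponds to 0.507 CPM, that is counts scaled to the size of the library, against 0.251 to 0.325 CPM in the other 5 nodes. This library also stood apart in kind: the summed level of plasma cell markers was 4.92 times the mean of the DKO/hA-I nodes, of neutrophil markers 8.9 times and of cell cycle genes 3.25 times, so results are given with and without it. Markers of the labelled tissue were present: B cell markers summed to 4468 to 7364 CPM and T cell markers to 2127 to 4955 CPM over the 6 nodes, and skeletal muscle markers to 74.4 to 102 CPM. The Y-linked genes Ddx3y, Eif2s3y, Kdm5d and Uty were expressed in every node and Xist stood at or below 1.01 CPM. Mouse Apoe, a gene disrupted in both genotypes, stood at 17.4, 8.62 and 17.8 CPM in DKO and at 7.77, 8.54 and 8.89 CPM in DKO/hA-I nodes (log2 fold change 0.82 ± 0.28, adjusted p = 0.126; without DKO replicate 2 1.07, adjusted p = 0.0039). The Apoa1 gene of the mouse did not pass the filter on low counts, so neither tests the labels. The ribosomal protein pseudogene Rpl31-ps12, which can share reads with its near-identical parent gene and other copies (chromosome 16, 16819749 to 16820123, minus strand, GRCm38) was counted 2094 times over the 3 DKO nodes and 3 times over the 3 DKO/hA-I nodes. The ratio was 772 (95% counting interval 264 to 3747). It differed in the opposite direction between the spleens as labelled, where it stood at 0.222, 0.0969 and 0.202 CPM in spleens labelled DKO and 53, 75.1 and 68.5 CPM in those labelled DKO/hA-I. Which of the 2 tissues, if either, carries exchanged labels cannot be told from these files, and every direction given here would turn if the labels of the nodes were exchanged.

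Genes were tested with edgeR's quasi-likelihood test and called at a Benjamini-Hochberg adjusted p under 0.05 over all 14012 genes tested. Levels are in CPM on the scale of edgeR's TMM normalization, and the 3 values of a genotype are replicates 1, 2 and 3 in that order. A fold change is given as log2 with its standard error, beside its adjusted p and, as a count of 6 fits, the number of the 6 fits with 1 node left out in which the gene passed too. The comparison called 962 genes (6.87%), 553 higher in DKO (3.95%) and 409 lower (2.92%), and 3516 genes had an unadjusted p under 0.05. Groups did not overlap for 4262 genes (30.4%), 2307 of them higher in DKO (16.5%) and 1955 lower (14.0%). The median log2 fold change of all genes tested was 0.01. Without DKO replicate 2, 1555 genes were higher (10.9%) and 690 lower (4.83%) of 14296 tested. Of the 962 genes, 919 were called again without it, all in the same direction. Leaving out another node gave fewer calls. There were 219 higher and 206 lower genes when DKO replicate 1 was omitted, and 71 and 73 when DKO replicate 3 was. Omission of DKO/hA-I replicates 1, 2 and 3 in turn left 55, 29 and 89 higher and 94, 86 and 344 lower genes. The shares of all genes given here are the background for every list count below. Counts of list members by node left out are to be read beside these totals. Because each library is bulk RNA of a whole node, fewer cells of a type and less RNA per cell cannot be told apart in any result.

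In the fit of 6 nodes and in every fit with 1 node left out, 83 genes passed, of which 21 rose and 62 fell in DKO. Among the higher genes was Mmp3 (stromelysin 1, a secreted matrix protease; ENSMUSG00000043613, chromosome 9, 7445822 to 7455975, plus strand), which stood at 115, 219 and 252 CPM in DKO and at 10.1, 10.2 and 7.6 CPM in DKO/hA-I nodes (log2 fold change 4.39 ± 0.32, adjusted p = 0.0057, 6 of 6 fits). Every DKO node lay several times above every DKO/hA-I node. Tlr8, an endosomal sensor of RNA degradation products, stood at 29.3, 36.9 and 57.3 CPM against 5.85, 6.38 and 7.28 CPM (log2 fold change 2.66 ± 0.27, adjusted p = 0.00742, 6 of 6 fits). Frzb, a secreted inhibitor of Wnt signalling, stood at 6.28, 12.3 and 14.3 CPM against 0.64, 1.08 and 0.642 CPM (log2 fold change 3.77 ± 0.42, adjusted p = 0.00901, 6 of 6 fits). Entpd1, which encodes the ectoenzyme CD39 that degrades extracellular ATP, stood at 137, 175 and 180.1 CPM against 67.6, 56.6 and 59.8 CPM (log2 fold change 1.42 ± 0.15, adjusted p = 0.00781, 6 of 6 fits). In these 3 genes DKO replicate 3 was the highest of the nodes, and DKO replicate 2, which was low for many macrophage genes, lay beside the other DKO nodes. Among the 62 lower genes were many of fat, described apart, and 5 that macrophages or dendritic cells are known for: Cd209b, Cd209d, Marco, Siglech and Il22ra2, the last of which was singled out after its values were seen. The phagocytic lectin gene Cd209b (ENSMUSG00000065987, chromosome 8, 3917655 to 3926844, minus strand) stood at 50.1, 53.4 and 21.7 CPM in DKO and at 507, 682 and 403 CPM in DKO/hA-I nodes (log2 fold change -3.67 ± 0.38, adjusted p = 0.00781, 6 of 6 fits). DKO replicate 3 was the lowest node, and the highest DKO node lay well under the lowest DKO/hA-I node.

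**Figure D1:**
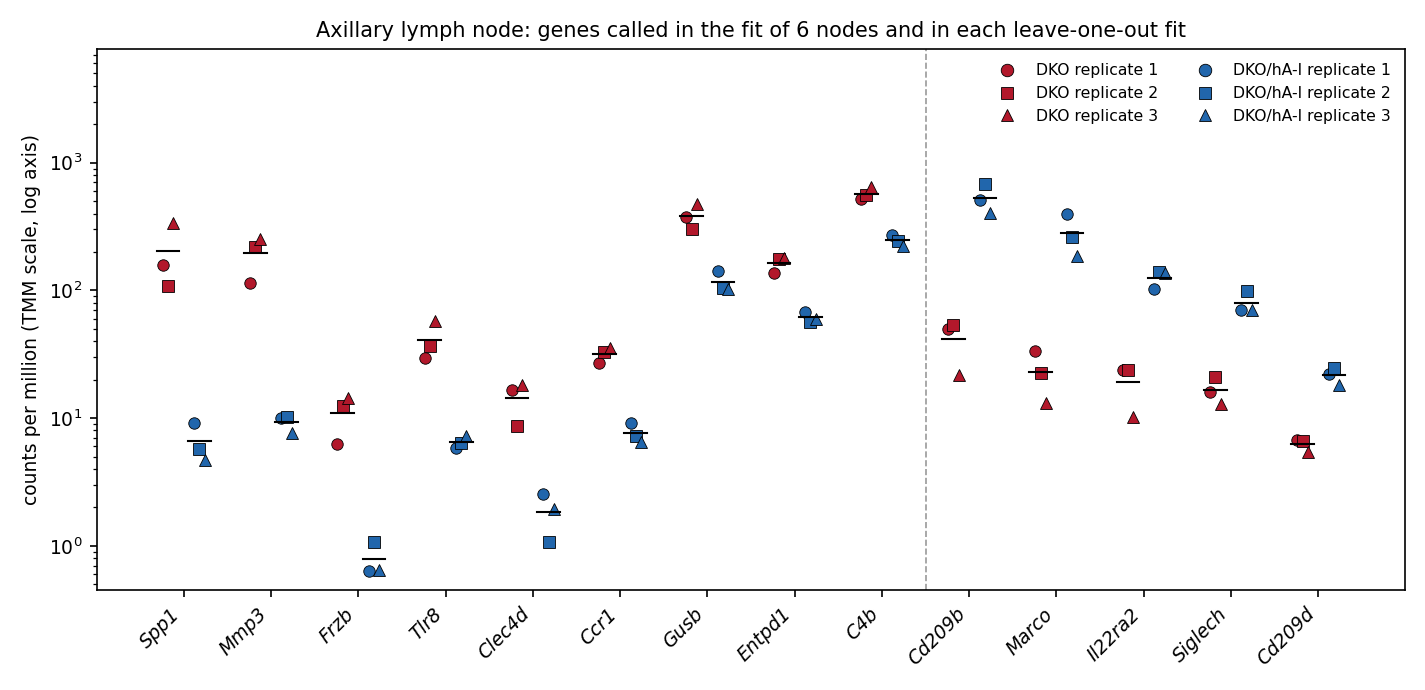
Level in CPM (counts scaled to library size with TMM, logarithmic axis) of 14 genes called in the fit of 6 nodes and in each fit with 1 node left out; each symbol is a node, red for DKO and blue for DKO/hA-I, and each bar is the mean of 3. To the left of the dashed line every DKO node lies above every DKO/hA-I node (Mmp3, 115, 219 and 252 CPM against 10.1, 10.2 and 7.6 CPM), and to the right every DKO node lies below (Cd209b, 50.1, 53.4 and 21.7 CPM against 507, 682 and 403 CPM).

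Genes of lipid-associated macrophages, the lipid-laden macrophages that express the receptor TREM2 in plaque and in obese fat, were higher in DKO nodes. Of 24 members tested, 17 rose and 0 fell, against 3.95% of all genes higher and 2.92% lower. All 24 had a positive log2 fold change and the median was 1.70. Spp1 (ENSMUSG00000029304, chromosome 5, 104435118 to 104441050, plus strand), which encodes the secreted phosphoprotein osteopontin, stood at 158, 109 and 340.2 CPM in DKO and at 9.23, 5.75 and 4.71 CPM in DKO/hA-I nodes (log2 fold change 4.94 ± 0.50, adjusted p = 0.00756, 6 of 6 fits). Gpnmb (ENSMUSG00000029816, chromosome 6, 49036546 to 49070929, plus strand), a membrane glycoprotein of lipid-laden macrophages and osteoclasts, stood at 2062, 357 and 2168 CPM in DKO and at 66.7, 54.9 and 86.5 CPM in DKO/hA-I nodes (log2 fold change 4.46 ± 0.66, adjusted p = 0.0154, 3 of 6 fits). Trem2, the lipid-sensing receptor itself, stood at 116, 21.8 and 170.2 CPM in DKO and at 3.93, 4.23 and 5.03 CPM in DKO/hA-I nodes (log2 fold change 4.55 ± 0.71, adjusted p = 0.017, 2 of 6 fits). In all 3, DKO replicate 2 was the lowest DKO node but still above every DKO/hA-I node. The macrophage elastase gene Mmp12 followed the same order at 1299.7, 232 and 1894 CPM against 58.5, 71.4 and 91.6 CPM (log2 fold change 3.95 ± 0.69, adjusted p = 0.0227, 1 of 6 fits). Smaller rises were measured for Lgals3, the galectin-3 gene, at 760.1, 228 and 996 CPM against 124, 87.6 and 106 CPM (log2 fold change 2.64 ± 0.49, adjusted p = 0.0258, 1 of 6 fits). Ctsd, the lysosomal aspartic protease cathepsin D, stood at 3545, 1681 and 4018 CPM against 1147, 929.9 and 784 CPM (log2 fold change 1.69 ± 0.32, adjusted p = 0.0288, 1 of 6 fits). Pld3, a lysosomal exonuclease, and Apoc1, an apolipoprotein gene, had log2 fold changes of 1.71 and 1.79 (adjusted p = 0.0177 and 0.0185), and both were called in 2 of 6 leave-one-out fits. 

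Members of the lipid-associated list that were not called included the lipid uptake genes. Lpl, which encodes lipoprotein lipase, stood at 1136, 485 and 2407 CPM in DKO and at 416, 569 and 242 CPM in DKO/hA-I nodes (log2 fold change 1.72 ± 0.56, adjusted p = 0.112; without DKO replicate 2 2.11, adjusted p = 0.0449), and the groups overlapped through DKO replicate 2. Cd36, a receptor for fatty acids and oxidized lipoproteins, stood at 535, 131 and 765 CPM in DKO and at 277, 333 and 176 CPM in DKO/hA-I nodes (log2 fold change 0.86 ± 0.56, adjusted p = 0.384; without DKO replicate 2 1.31, adjusted p = 0.0265). Fat expresses these 2 genes as well, and its markers were lower in DKO nodes. Leaving out DKO replicate 2 gave 23 of 24 members higher with a median of 1.97, against 10.9% of all genes. Omission of DKO replicates 1, 2 and 3 and then of DKO/hA-I replicates 1, 2 and 3 gave 4, 23, 1, 1, 1 and 3 higher members in that order. Counts by node left out are given in this order from here on. The summed level of the list was 3.72, 1.62 and 4.74 times the mean of the DKO/hA-I nodes in DKO replicates 1, 2 and 3, and 1.17, 0.998 and 0.835 times that mean in the DKO/hA-I nodes themselves.

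Genes best known from the osteoclast, the multinucleate macrophage that resorbs bone, were a smaller list. Of 16 tested, 6 rose and 0 fell (median 1.03). Ctsk, the collagen-degrading cathepsin K, stood at 328, 45.8 and 382 CPM in DKO and at 14.3, 11.7 and 14.2 CPM in DKO/hA-I nodes (log2 fold change 4.23 ± 0.72, adjusted p = 0.0206, 1 of 6 fits). Atp6v0d2, a subunit of the proton pump that acidifies lysosomes and the resorption space, stood at 215, 51.4 and 299 CPM in DKO and at 13.9, 11.6 and 16.2 CPM in DKO/hA-I nodes (log2 fold change 3.77 ± 0.59, adjusted p = 0.0177, 2 of 6 fits). Ckb, the brain-type creatine kinase that osteoclasts induce, stood at 249.99, 51.1 and 236 CPM in DKO and at 29, 27 and 24.4 CPM in DKO/hA-I nodes (log2 fold change 2.74 ± 0.53, adjusted p = 0.0296, 1 of 6 fits). DKO replicates 1 and 3 lay close together in each of these, and DKO replicate 2 lay between them and the DKO/hA-I nodes. Mmp9, the gelatinase B gene, showed another order, with 35.5, 59.8 and 44.3 CPM against 15.4, 14.5 and 7.82 CPM (log2 fold change 1.88 ± 0.29, adjusted p = 0.017, 3 of 6 fits) and DKO replicate 2 highest. The transcription factor gene Mitf and the proton pump subunit gene Tcirg1 had log2 fold changes of 1.43 and 1.03 (adjusted p = 0.026 and 0.0393, each in 1 of 6 fits). Not called with all 6 nodes were Acp5, the tartrate-resistant acid phosphatase, at 269, 172 and 274 CPM against 133, 129 and 158 CPM (log2 fold change 0.77 ± 0.20, adjusted p = 0.0597; without DKO replicate 2 0.96, adjusted p = 0.00191), and Dcstamp. Dcstamp, a membrane protein needed for cell fusion, stood at 25.8, 1.52 and 31.9 CPM against 2.01, 2.79 and 3.32 CPM (log2 fold change 2.90 ± 0.85, adjusted p = 0.0854). In Dcstamp, DKO replicate 2 lay below every DKO/hA-I node, and without it the log2 fold change was 3.42, adjusted p = 8.85e-05. Of 16 members, 13 were higher without DKO replicate 2, against 10.9% of all genes in that fit and 3.95% with all 6 nodes, and the counts by node left out were 2, 13, 0, 0, 0 and 1.

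Lysosomal genes, which encode the hydrolases, membrane proteins and proton pump of the degradative compartment where ingested lipoproteins are broken down, had all their calls in the higher direction. Of 50 tested, 19 rose and 0 fell, against 3.95% of all genes higher, and 49 had a positive log2 fold change (median 0.59). Many lysosomal genes carry in their promoters a short element, known as CLEAR, whose core TCACGTG is bound by TFEB and related factors. In the 250 bases before the transcription start, TCACGTG on either strand was present in 852 of 27025 RefSeq mouse promoters (3.15%), in 4.81% of the 9967 tested genes with a promoter, in 11 of the 40 lysosomal genes with one (27.5%), and also in 3 of the 16 cholesterol synthesis genes with one (18.8%), among them Insig1, which fell. Of those 11, 4 were called higher (Gla, Naglu, Atp6v1a and Atp6v0b), no larger a share than the 19 of 50 of the whole list. Their promoters are shown because these genes were called and hold the motif, with TCACGTG and overlapping copies of it in capitals (RefSeq, GRCm38.p6, 5′ to 3′ on the strand of the gene, lying at chrX:134601006-134601255, minus strand, chr11:101069844-101070093, plus strand, chr16:44139260-44139509, minus strand, and chr4:117887330-117887579, minus strand).
Gla: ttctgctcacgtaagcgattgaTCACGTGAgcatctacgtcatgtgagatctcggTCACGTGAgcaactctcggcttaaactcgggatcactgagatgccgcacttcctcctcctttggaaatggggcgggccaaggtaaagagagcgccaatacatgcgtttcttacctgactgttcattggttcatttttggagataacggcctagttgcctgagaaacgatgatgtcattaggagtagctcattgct
Naglu: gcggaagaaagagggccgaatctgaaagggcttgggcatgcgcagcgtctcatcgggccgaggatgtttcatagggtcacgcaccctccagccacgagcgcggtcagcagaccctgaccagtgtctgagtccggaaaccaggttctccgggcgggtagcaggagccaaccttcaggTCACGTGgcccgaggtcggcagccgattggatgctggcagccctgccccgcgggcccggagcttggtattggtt
Atp6v1a: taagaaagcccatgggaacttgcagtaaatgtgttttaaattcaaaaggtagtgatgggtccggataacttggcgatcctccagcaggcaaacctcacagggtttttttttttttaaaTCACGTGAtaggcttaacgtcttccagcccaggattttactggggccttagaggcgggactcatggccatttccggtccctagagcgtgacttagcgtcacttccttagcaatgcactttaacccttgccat
Atp6v0b: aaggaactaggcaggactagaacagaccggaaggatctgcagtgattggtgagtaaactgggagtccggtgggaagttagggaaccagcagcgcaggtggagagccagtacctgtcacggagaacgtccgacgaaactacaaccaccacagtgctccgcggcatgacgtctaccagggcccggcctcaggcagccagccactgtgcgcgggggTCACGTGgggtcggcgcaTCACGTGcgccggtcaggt
Gla and Atp6v0b hold 2 separate stretches in capitals, and Naglu and Atp6v1a 1. A match describes the sequence and is no evidence that a factor binds there, and 20 of 387 called higher genes with a promoter (5.17%) and 13 of 280 called lower genes (4.64%) held the motif, shares close to that of all tested genes.

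Gla, the alpha-galactosidase A gene whose promoter holds 2 such stretches, stood at 49.7, 28.9 and 68 CPM in DKO and at 20.6, 9.89 and 15.3 CPM in DKO/hA-I nodes (log2 fold change 1.69 ± 0.36, adjusted p = 0.0373, 1 of 6 fits). Naglu, which removes N-acetylglucosamine from heparan sulfate, stood at 67.3, 43.3 and 70.1 CPM in DKO and at 31.8, 35 and 34.8 CPM in DKO/hA-I nodes (log2 fold change 0.84 ± 0.19, adjusted p = 0.0435, 1 of 6 fits). Gla and Naglu were singled out for the motif after their values were seen. The proton pump gene Atp6v1a stood at 272, 170.2 and 367 CPM against 119.8, 113 and 98.8 CPM (log2 fold change 1.29 ± 0.26, adjusted p = 0.0324, 1 of 6 fits). Its fellow Atp6v0b stood at 148, 119.7 and 145 CPM against 88.6, 82 and 78.7 CPM (log2 fold change 0.73 ± 0.13, adjusted p = 0.0227, 1 of 6 fits). All 4 genes were lowest among DKO nodes in replicate 2, and in none did the genotypes overlap. Among lysosomal genes without the motif in this window, Gusb, the beta-glucuronidase gene, stood at 376, 303 and 471 CPM in DKO and at 141, 105 and 102 CPM in DKO/hA-I nodes (log2 fold change 1.72 ± 0.21, adjusted p = 0.00993, 6 of 6 fits). Lgmn, the asparagine-specific protease legumain, stood at 700.5, 427 and 899 CPM in DKO and at 225, 163 and 142 CPM in DKO/hA-I nodes (log2 fold change 1.94 ± 0.30, adjusted p = 0.0162, 3 of 6 fits). Galns, an N-acetylgalactosamine-6-sulfatase, stood at 47.1, 64.9 and 54.7 CPM against 28.4, 25.1 and 24.2 CPM (log2 fold change 1.10 ± 0.16, adjusted p = 0.0138, 4 of 6 fits), with DKO replicate 2 the highest of the 6 nodes. Lamp2, a main membrane protein of lysosomes, had a log2 fold change of 0.93 (adjusted p = 0.0227, 2 of 6 fits) and Galc, which degrades galactosylceramide, of 1.34 (adjusted p = 0.0227, 1 of 6 fits). Psap, the precursor of the saposins that present lipids to lysosomal hydrolases, stood at 7865, 3812 and 8735 CPM against 3836, 3127 and 2919 CPM without being called (log2 fold change 1.05 ± 0.30, adjusted p = 0.0823; without DKO replicate 2 1.33, adjusted p = 0.00167). Its DKO replicate 2 lay just below the highest DKO/hA-I node. Of 50 members, 36 were higher without DKO replicate 2 (median 0.70), against 10.9% of all genes in that fit. The counts by node left out were 4, 36, 1, 3, 1 and 2.

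Genes of cholesterol export and of the sterol-sensing receptor LXR gave few calls. Of 20 tested, 1 rose and 0 fell (median 0.41), near the 3.95% of all genes called higher. At an unadjusted p under 0.05 edgeR had 10 higher and 1 lower. DESeq2 called 7 higher and 0 lower, and voom 1 and 0. The called gene was Pltp, which encodes the phospholipid transfer protein of plasma lipoproteins, at 562, 340.3 and 947 CPM in DKO and at 132, 82.8 and 81.3 CPM in DKO/hA-I nodes (log2 fold change 2.64 ± 0.39, adjusted p = 0.0152, 4 of 6 fits). The cholesterol exporter Abca1 stood at 1028, 636 and 1408 CPM in DKO and at 665, 514 and 571 CPM in DKO/hA-I nodes (log2 fold change 0.81 ± 0.28, adjusted p = 0.121). Abcg1 stood at 502, 266 and 608 CPM in DKO and at 313, 186 and 222 CPM in DKO/hA-I nodes (log2 fold change 0.93 ± 0.32, adjusted p = 0.1248). In both, DKO replicates 1 and 3 lay above all DKO/hA-I nodes and DKO replicate 2 lay among them. Npc2, which moves cholesterol out of the lysosome, behaved alike at 786, 432 and 907 CPM against 439.6, 375 and 399.9 CPM (log2 fold change 0.81 ± 0.26, adjusted p = 0.105; without DKO replicate 2 1.06, adjusted p = 0.00162). Of 20 members, 10 were higher without DKO replicate 2, against 10.9% of all genes. Among them were Abca1 (log2 fold change 1.06, adjusted p = 0.00542) and Abcg1 (1.21, adjusted p = 0.00985). The counts by node left out were 1, 10, 1, 1, 0 and 0.

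Genes of cholesterol synthesis and uptake, which the sterol-regulated factor SREBP2 controls, gave calls in the lower direction. Of 24 tested, 0 rose and 6 fell, against 2.92% of all genes lower (median -0.38). Hmgcs1, the synthase that supplies HMG-CoA, stood at 33.5, 41.8 and 41.3 CPM in DKO and at 75.1, 73.4 and 58.1 CPM in DKO/hA-I nodes (log2 fold change -0.83 ± 0.15, adjusted p = 0.0257, 2 of 6 fits). The 3 DKO nodes differed little from each other in Hmgcs1 and lay below every DKO/hA-I node. Acat2, which makes acetoacetyl-CoA, stood at 19.6, 30.6 and 20.2 CPM against 53.3, 61.8 and 35.7 CPM (log2 fold change -1.11 ± 0.25, adjusted p = 0.0435, 2 of 6 fits). Insig1, a sterol sensor that retains the SREBP machinery in the endoplasmic reticulum, stood at 24.3, 51.2 and 28 CPM against 97.9, 101 and 59.8 CPM (log2 fold change -1.33 ± 0.32, adjusted p = 0.0499, 1 of 6 fits). Pmvk, a kinase of the mevalonate pathway, had a log2 fold change of -0.68 (adjusted p = 0.0479, 1 of 6 fits). Srebf2, the gene of SREBP2, stood at 143, 144 and 120.5 CPM against 161, 190.2 and 180.4 CPM (log2 fold change -0.38 ± 0.13, adjusted p = 0.124). Idi1, the isomerase that follows in the pathway, was not called with all 6 nodes but was without DKO replicate 2, at 13, 37 and 14.6 CPM against 27, 32.5 and 29.7 CPM, where the log2 fold change was -1.11, adjusted p = 0.00242. Without that node 10 of 24 members were lower, against 4.83% of all genes, and the counts of lower members by node left out were 1, 10, 0, 0, 0 and 3. These genes are also expressed by fat cells, whose markers were higher in DKO/hA-I nodes, and the part of fat in this result was not tested.

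Receptors through which phagocytes take up antibody complexes, dying cells and modified lipoproteins changed in both directions. Of 24 tested, 11 rose and 2 fell (median 1.12). Fcgr3, a low-affinity activating receptor for IgG, stood at 154, 99.2 and 221 CPM in DKO and at 37.4, 34.7 and 30.7 CPM in DKO/hA-I nodes (log2 fold change 2.21 ± 0.28, adjusted p = 0.0115, 5 of 6 fits). Fcgr4, another activating IgG receptor, stood at 47.6, 81.3 and 65.6 CPM in DKO and at 17.5, 5.93 and 11.1 CPM in DKO/hA-I nodes (log2 fold change 2.49 ± 0.38, adjusted p = 0.0163, 4 of 6 fits). Mertk, a kinase receptor for apoptotic cells, stood at 147, 94.3 and 177 CPM in DKO and at 54.3, 42.8 and 36.2 CPM in DKO/hA-I nodes (log2 fold change 1.65 ± 0.25, adjusted p = 0.0162, 3 of 6 fits). No DKO node overlapped the DKO/hA-I nodes in these 3, and DKO replicate 2 was lowest of the DKO nodes in Fcgr3 and Mertk and highest in Fcgr4. Colec12, a scavenger receptor of the collectin family, stood at 153, 139 and 219 CPM against 65, 63.6 and 67.9 CPM (log2 fold change 1.38 ± 0.18, adjusted p = 0.0125, 4 of 6 fits). Clec7a, the receptor dectin-1 for fungal glucans, stood at 352, 158 and 509 CPM against 96.7, 64.1 and 85.5 CPM (log2 fold change 2.05 ± 0.40, adjusted p = 0.0295, 1 of 6 fits). The members that fell were Marco and Timd4, described with the sinus macrophages. By node left out, 4, 13, 2, 5, 1 and 2 members were higher and 1, 2, 2, 1, 1 and 2 lower.

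Complement, the cascade of plasma and macrophage proteins that tags particles for uptake, had most of its called genes higher in DKO nodes. Of 21 tested, 14 rose and 1 fell (median 0.99). C1qa, a chain of the recognition molecule C1q that macrophages make, stood at 582, 400.0 and 903 CPM against 184, 133 and 146 CPM (log2 fold change 2.02 ± 0.30, adjusted p = 0.0147, 3 of 6 fits). Its partner chain C1qb stood at 657, 392 and 1016 CPM against 193, 144 and 141 CPM (log2 fold change 2.11 ± 0.34, adjusted p = 0.0177, 3 of 6 fits). C4b, the component cleaved next, stood at 517, 559.8 and 642 CPM in DKO and at 273, 243 and 221 CPM in DKO/hA-I nodes (log2 fold change 1.22 ± 0.14, adjusted p = 0.00978, 6 of 6 fits). C4a and C4b are near-identical copies, so the division of reads between them is uncertain. Serping1, the C1 inhibitor that restrains the pathway, also rose, from 206, 186 and 162 CPM in the DKO/hA-I nodes to 357, 419 and 536 CPM in the DKO nodes (log2 fold change 1.25 ± 0.18, adjusted p = 0.0146, 4 of 6 fits). The receptors for the peptides C3a and C5a rose as well. C3ar1 stood at 108, 41.4 and 229.5 CPM in DKO and at 10.8, 7.28 and 4.39 CPM in DKO/hA-I nodes (log2 fold change 4.07 ± 0.64, adjusted p = 0.0177, 3 of 6 fits). C5ar1 stood at 6.91, 17.2 and 20.7 CPM in DKO and at 2.38, 2.88 and 2.36 CPM in DKO/hA-I nodes (log2 fold change 2.54 ± 0.42, adjusted p = 0.0184, 2 of 6 fits). The gene that fell was Cd55, a membrane protein that protects cells by decay of the C3 convertase, at 196, 129 and 158 CPM in DKO and at 325, 471 and 339 CPM in DKO/hA-I nodes (log2 fold change -1.23 ± 0.21, adjusted p = 0.0202, 3 of 6 fits). Higher members numbered 8, 13, 6, 1, 2 and 2 by node left out. Cd55 was the lower member in all but 3 of those fits.

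Of 32 inflammatory cytokines and chemokines tested, 8 rose and 0 fell (median 0.77), against 3.95% of all genes higher. Most that rose are chemokines of macrophages. Ccl9, a monocyte attractant of the mouse, stood at 182, 94.5 and 312 CPM in DKO and at 34.8, 23.1 and 35.3 CPM in DKO/hA-I nodes (log2 fold change 2.66 ± 0.42, adjusted p = 0.0177, 3 of 6 fits). The related Ccl6 stood at 151, 103 and 267 CPM in DKO and at 45, 30.2 and 28.4 CPM in DKO/hA-I nodes (log2 fold change 2.33 ± 0.36, adjusted p = 0.017, 3 of 6 fits). Their receptor gene Ccr1, called in every fit, stood at 27.2, 33.1 and 35.7 CPM in DKO and at 9.14, 7.19 and 6.53 CPM in DKO/hA-I nodes (log2 fold change 2.06 ± 0.19, adjusted p = 0.00729, 6 of 6 fits). The groups were apart in all 3 genes. Cxcl16, both a chemokine and a scavenger receptor for oxidized lipoprotein, stood at 224, 133 and 370.1 CPM against 93.1, 55.4 and 77.7 CPM (log2 fold change 1.69 ± 0.37, adjusted p = 0.0395, 1 of 6 fits). Il1rn, the natural antagonist of the interleukin-1 receptor, stood at 63.1, 31.3 and 107 CPM against 20.4, 9.62 and 12.7 CPM (log2 fold change 2.24 ± 0.46, adjusted p = 0.0335, 1 of 6 fits). Nlrp3, the sensor of the inflammasome that crystals activate, stood at 11.4, 13.9 and 20.7 CPM against 7.22, 7.91 and 5.03 CPM (log2 fold change 1.19 ± 0.28, adjusted p = 0.0487, 1 of 6 fits). Cxcl14, Ccl12 and Ccl4 had log2 fold changes of 3.23, 0.73 and 1.48 (adjusted p = 0.0232, 0.0321 and 0.0345, in 2, 1 and 1 of 6 fits). The growth factor genes Csf1 and Tgfb1 were not called. Csf1 stood at 109, 80.1 and 120.2 CPM against 139, 139 and 122 CPM (log2 fold change -0.37 ± 0.17, adjusted p = 0.216). Tgfb1 stood at 168, 119 and 173 CPM against 149.8, 127 and 115 CPM (log2 fold change 0.23 ± 0.18, adjusted p = 0.468). Of 32 genes, 13 were higher without DKO replicate 2, against 10.9% of all genes in that fit, and the counts by node left out were 4, 13, 2, 0, 0 and 0.

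Among 18 genes of eicosanoid metabolism, 4 rose and 1 fell (median 0.56). Pla2g7, the lipoprotein-associated phospholipase that hydrolyses platelet-activating factor and oxidized phospholipid, stood at 262, 169 and 342 CPM in DKO and at 70.5, 44.1 and 49.8 CPM in DKO/hA-I nodes (log2 fold change 2.23 ± 0.29, adjusted p = 0.0121, 5 of 6 fits). Slco2a1, a prostaglandin uptake transporter, stood at 46.1, 43.4 and 54.9 CPM in DKO and at 17.9, 20.3 and 16.7 CPM in DKO/hA-I nodes (log2 fold change 1.40 ± 0.15, adjusted p = 0.00795, 6 of 6 fits). The haematopoietic prostaglandin D synthase Hpgds stood at 46.7, 44.6 and 76.9 CPM against 19.1, 17.5 and 20.7 CPM (log2 fold change 1.56 ± 0.23, adjusted p = 0.0146, 4 of 6 fits). Tbxas1, thromboxane synthase, stood at 29.9, 15.7 and 55.1 CPM against 8.77, 8.09 and 5.46 CPM (log2 fold change 2.18 ± 0.44, adjusted p = 0.0321, 1 of 6 fits). All 4 lay higher in every DKO node than in any DKO/hA-I node. Ptgds, the other prostaglandin D synthase, fell from low levels, at 0.987, 0.169 and 0.265 CPM against 2.28, 2.52 and 2.78 CPM (log2 fold change -2.27 ± 0.52, adjusted p = 0.0437, 2 of 6 fits). The higher members numbered 3, 7, 3, 2, 1 and 3 and the lower ones 1, 2, 0, 0, 0 and 0 by node left out.

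The extracellular matrix was the other large group that was higher in DKO nodes. Of 42 genes of collagens and fibrillar matrix tested, 20 rose and 0 fell (median 1.24), against 3.95% of all genes higher. Fn1, which encodes fibronectin, stood at 261, 304 and 597 CPM in DKO and at 81.8, 101 and 62.8 CPM in DKO/hA-I nodes (log2 fold change 2.24 ± 0.34, adjusted p = 0.0162, 3 of 6 fits). Thbs1, the matricellular protein thrombospondin 1, stood at 96.5, 111 and 142 CPM in DKO and at 41.6, 37 and 42.2 CPM in DKO/hA-I nodes (log2 fold change 1.53 ± 0.17, adjusted p = 0.00811, 6 of 6 fits). Bgn, the small proteoglycan biglycan, which binds lipoproteins in arterial intima, stood at 551, 407 and 843 CPM in DKO and at 188, 163 and 148 CPM in DKO/hA-I nodes (log2 fold change 1.85 ± 0.27, adjusted p = 0.0141, 4 of 6 fits). In each of these genes DKO replicate 3 was the highest node and no DKO node overlapped the DKO/hA-I nodes. The basement membrane collagens Col4a1 and Col4a2, neighbours that share a promoter region, had log2 fold changes of 1.25 and 1.30 (adjusted p = 0.0227 and 0.0227, in 3 and 2 of 6 fits). Loxl2, which cross-links collagen, stood at 41.3, 32.1 and 58.3 CPM against 15.5, 19.96 and 13.8 CPM (log2 fold change 1.42 ± 0.25, adjusted p = 0.0215, 1 of 6 fits). The fibrillar collagens of scar, Col1a1 and Col3a1, did not pass. Col1a1 stood at 172, 135 and 337 CPM against 103, 60.0 and 43.4 CPM (log2 fold change 1.64 ± 0.42, adjusted p = 0.059) with DKO replicate 3 above the rest. Col3a1 stood at 247, 284 and 716 CPM against 191, 129 and 87 CPM (log2 fold change 1.62 ± 0.46, adjusted p = 0.0786). Of 42 genes, 26 were higher without DKO replicate 2, against 10.9% of all genes in that fit, and the counts by node left out were 10, 26, 6, 1, 1 and 3.

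Matrix proteases and their inhibitors followed, with 10 of 22 tested higher and 1 lower (median 1.43), against 3.95% of all genes higher. Beside Mmp3, Mmp9 and Ctsk, Timp1, a secreted inhibitor of metalloproteinases, stood at 4.66, 6.76 and 16.8 CPM in DKO and at 0.914, 0.539 and 0.964 CPM in DKO/hA-I nodes (log2 fold change 3.55 ± 0.57, adjusted p = 0.0177, 3 of 6 fits). Mmp19, a metalloproteinase of basement membrane, stood at 73.1, 28.7 and 131 CPM in DKO and at 11.6, 12.7 and 9.96 CPM in DKO/hA-I nodes (log2 fold change 2.77 ± 0.49, adjusted p = 0.0233, 1 of 6 fits). Mmp14, the membrane-bound collagenase, stood at 180.5, 138 and 250.4 CPM against 93, 70.7 and 66.2 CPM (log2 fold change 1.31 ± 0.24, adjusted p = 0.0246, 1 of 6 fits). In all 3 the highest DKO/hA-I node lay below the lowest DKO node. Timp3, the inhibitor bound to matrix, was the member that fell, at 142, 121 and 119 CPM against 170.4, 210.0 and 194 CPM (log2 fold change -0.59 ± 0.14, adjusted p = 0.0443, 1 of 6 fits). Plau, the urokinase gene, stood at 101, 44.3 and 152 CPM against 44.8, 31.7 and 24.4 CPM (log2 fold change 1.56 ± 0.43, adjusted p = 0.0713; without DKO replicate 2 1.90, adjusted p = 0.00916), and the groups overlapped through DKO replicate 2. The counts by node left out were 7, 17, 3, 2, 2 and 4 higher and 0, 1, 0, 0, 0 and 0 lower. Without DKO replicate 2, 10.9% of all genes were higher. The promoters of Mmp3 and Trem2 are shown because these genes rose among the most and both hold TGANTCA, so they were chosen for both. TGANTCA, searched here on both strands, is a loose form of the site of the AP-1 factors, whose usual centre is G or C. The stretch reads TGAGTCA in Mmp3 but TGAATCA in Trem2. The motif is in capitals (RefSeq, GRCm38.p6, 5′ to 3′ on the strand of the gene, at chr9:7445572-7445821, plus strand and chr17:48346151-48346400, plus strand).
Mmp3: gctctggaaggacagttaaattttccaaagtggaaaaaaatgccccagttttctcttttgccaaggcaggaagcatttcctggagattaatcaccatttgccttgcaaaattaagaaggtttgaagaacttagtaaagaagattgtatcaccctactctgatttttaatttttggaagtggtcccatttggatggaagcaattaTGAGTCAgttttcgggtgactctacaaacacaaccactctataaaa
Trem2: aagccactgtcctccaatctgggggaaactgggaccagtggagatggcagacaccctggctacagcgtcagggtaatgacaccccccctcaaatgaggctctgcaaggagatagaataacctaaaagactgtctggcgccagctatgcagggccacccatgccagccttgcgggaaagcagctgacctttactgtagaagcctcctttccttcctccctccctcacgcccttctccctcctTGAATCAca
In the 250 bases before the start, 1856 of 27025 promoters held this motif (6.87%), 4.45% of the 9967 tested genes, 3 of 15 protease genes with a promoter (20%) and 3 of 19 lipid-associated genes (15.8%). It was present in 26 of 387 called higher genes (6.72%) and 14 of 280 called lower genes (5%). These are matches of letters in a window and no measure of binding.

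**Figure D2:**
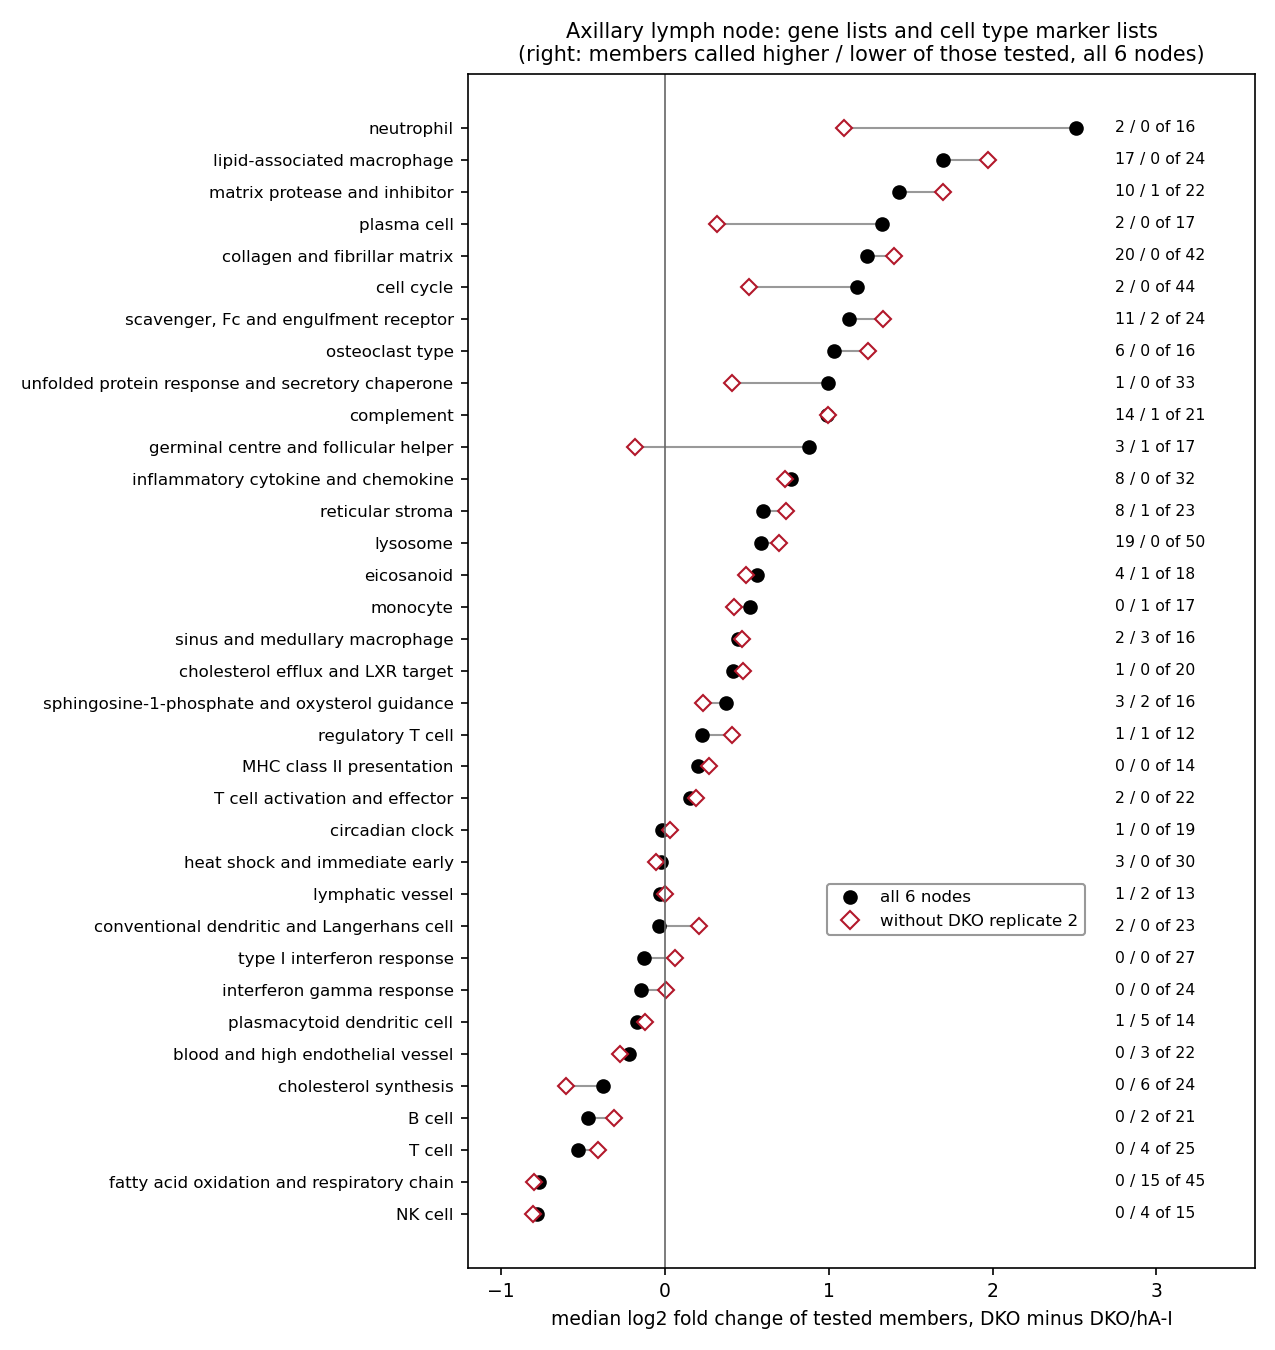
Median log2 fold change (DKO minus DKO/hA-I, horizontal axis) of the tested members of each gene list and cell type list with at least 12 tested members, fat lists left out. Filled circles are from all 6 nodes and open diamonds without DKO replicate 2. The numbers to the right count members called higher and lower of those tested. Without DKO replicate 2 the median of lipid-associated macrophage genes is higher (1.97 against 1.70), and that of plasma cell markers, a list for which this node was set apart, goes from 1.32 to 0.32.

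Reticular stromal cells build the fibre network of the node and supply lymphocytes with survival factors and chemokines. Of 23 markers tested, 8 rose and 1 fell (median 0.60), while 2 of the 25 listed were at 0 in every node. Cxcl13, the chemokine that draws B cells to follicles, stood at 229, 468 and 344 CPM in DKO and at 139, 134 and 136 CPM in DKO/hA-I nodes (log2 fold change 1.34 ± 0.24, adjusted p = 0.0237, 2 of 6 fits). Tnfsf13b, the B cell survival factor BAFF, stood at 24.6, 32.3 and 36 CPM in DKO and at 13.6, 9.44 and 9.85 CPM in DKO/hA-I nodes (log2 fold change 1.49 ± 0.22, adjusted p = 0.0141, 4 of 6 fits). Grem1, a secreted antagonist of bone morphogenetic proteins, stood at 25.5, 69.1 and 33.9 CPM in DKO and at 8.77, 12.2 and 11.6 CPM in DKO/hA-I nodes (log2 fold change 1.97 ± 0.37, adjusted p = 0.0277, 2 of 6 fits). In Cxcl13 and Grem1 DKO replicate 2 was the highest node, while in Tnfsf13b it lay between the other DKO nodes. Pdpn, a surface mucin of reticular cells and lymphatics that some macrophages also carry, stood at 35.5, 24.5 and 58.4 CPM against 10.1, 9.8 and 11 CPM (log2 fold change 1.95 ± 0.31, adjusted p = 0.017, 3 of 6 fits). The platelet-derived growth factor receptors Pdgfra and Pdgfrb had log2 fold changes of 1.11 and 1.23 (adjusted p = 0.0177 and 0.0177, in 2 and 1 of 6 fits). The chemokines of the T cell zone were not called. Ccl19 stood at 115, 102 and 103 CPM against 146, 92.1 and 132 CPM (log2 fold change -0.21 ± 0.18, adjusted p = 0.509). Ccl21a, which has near-identical copies so that its reads are uncertain, stood at 108, 194 and 259 CPM against 164, 245 and 355 CPM (log2 fold change -0.45 ± 0.36, adjusted p = 0.497). Clec4g, a lectin of sinusoidal endothelium, fell, at 2.06, 1.35 and 1.15 CPM against 6.03, 10.9 and 8.35 CPM (log2 fold change -2.44 ± 0.34, adjusted p = 0.0138, 4 of 6 fits). Of 23 genes, 11 were higher without DKO replicate 2, against 10.9% of all genes in that fit and 3.95% with all nodes. The counts by node left out were 7, 11, 2, 1, 0 and 2 higher and 1, 1, 0, 1, 0 and 1 lower.

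Markers of sinus and medullary macrophages, the resident cells that filter lymph, did not move as one. Of 16 tested, 2 rose and 3 fell. Marco (ENSMUSG00000026390, chromosome 1, 120474538 to 120505024, minus strand), a scavenger receptor of medullary and marginal zone macrophages, stood at 33.3, 22.5 and 13.1 CPM in DKO and at 399.6, 263 and 184 CPM in DKO/hA-I nodes (log2 fold change -3.62 ± 0.41, adjusted p = 0.00948, 6 of 6 fits). Timd4, a receptor for phosphatidylserine on resident macrophages, stood at 63.6, 73.7 and 32.1 CPM in DKO and at 183, 248 and 167 CPM in DKO/hA-I nodes (log2 fold change -1.83 ± 0.31, adjusted p = 0.0205, 3 of 6 fits). Lyve1, the hyaluronan receptor of lymphatic endothelium and some resident macrophages, stood at 119.7, 147 and 98.3 CPM in DKO and at 232, 191 and 211 CPM in DKO/hA-I nodes (log2 fold change -0.80 ± 0.17, adjusted p = 0.0359, 1 of 6 fits). In each the genotypes did not overlap and DKO replicate 3 was the lowest node. Cd209d, a relative of Cd209b, stood at 6.73, 6.59 and 5.47 CPM against 22.1, 24.6 and 18.3 CPM (log2 fold change -1.79 ± 0.19, adjusted p = 0.00795, 6 of 6 fits). Members of the CD209 family are similar in sequence, and the sources used here do not say how reads were divided among them. Il22ra2, which encodes the soluble receptor that neutralizes interleukin-22, stood at 23.9, 23.7 and 10.2 CPM against 102, 138 and 136 CPM (log2 fold change -2.71 ± 0.32, adjusted p = 0.00993, 6 of 6 fits). Siglec1, the sialic acid receptor that defines subcapsular sinus macrophages, was not called, at 255, 226 and 210.5 CPM against 466, 409 and 275 CPM (log2 fold change -0.73 ± 0.20, adjusted p = 0.0737). Nor was Csf1r, the macrophage growth factor receptor, at 487, 410.5 and 589 CPM against 395, 365 and 312 CPM (log2 fold change 0.47 ± 0.17, adjusted p = 0.139; without DKO replicate 2 0.59, adjusted p = 0.0309). The members that rose, C1qa and Cd68, are expressed by macrophages at large. Cd68, a glycoprotein of late endosomes, stood at 354, 127 and 438 CPM against 91.3, 73.2 and 60.3 CPM (log2 fold change 2.03 ± 0.42, adjusted p = 0.0341, 1 of 6 fits). By node left out the counts were 1, 5, 1, 1, 0 and 0 higher and 1, 3, 2, 1, 1 and 3 lower, and Marco was called in all 6 of those fits.

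Plasmacytoid dendritic cells are the main producers of type I interferon. Of 14 of their markers, 5 fell and 1 rose. Siglech, the sialic acid receptor by which the mouse cell is defined, stood at 15.9, 21.1 and 13 CPM in DKO and at 70.7, 98.7 and 69.9 CPM in DKO/hA-I nodes (log2 fold change -2.27 ± 0.22, adjusted p = 0.00729, 6 of 6 fits). Ccr9, a chemokine receptor of these cells, stood at 8.25, 6.42 and 6.8 CPM in DKO and at 15.6, 20.1 and 18.7 CPM in DKO/hA-I nodes (log2 fold change -1.33 ± 0.19, adjusted p = 0.0138, 4 of 6 fits). Pacsin1, Klk1 and Cd300c, the last a member of a myeloid receptor family, had log2 fold changes of -0.72, -1.43 and -1.83 (adjusted p = 0.031, 0.0341 and 0.0276, each in 1 of 6 fits). The transcription factor gene Tcf4, which B cells also express, was not called, at 155, 234 and 164 CPM against 162, 147 and 166 CPM (log2 fold change 0.22 ± 0.18, adjusted p = 0.492). Nor was Spib, another such gene, at 316, 238 and 213 CPM against 284, 307 and 268 CPM (log2 fold change -0.16 ± 0.17, adjusted p = 0.597). The member that rose, the collagen receptor Lair1, is found on many leukocytes and stood at 89.5, 64.1 and 136 CPM against 44, 41.3 and 38.8 CPM (log2 fold change 1.23 ± 0.26, adjusted p = 0.0341, 1 of 6 fits). Lower members numbered 3, 5, 1, 2, 1 and 2 and the higher ones 0, 1, 0, 0, 0 and 0 by node left out.

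Among markers of natural killer cells 4 of 15 tested fell and 0 rose, and all 15 were below 0 in log2 fold change (median -0.78). Ncr1, the activating receptor NKp46, stood at 3.86, 5.07 and 5.56 CPM in DKO and at 13.1, 12.6 and 13.6 CPM in DKO/hA-I nodes (log2 fold change -1.44 ± 0.20, adjusted p = 0.014, 4 of 6 fits). Gzma, the granule protease granzyme A, stood at 2.24, 2.87 and 0.971 CPM in DKO and at 9.87, 7.55 and 11.6 CPM in DKO/hA-I nodes (log2 fold change -2.30 ± 0.38, adjusted p = 0.0196, 1 of 6 fits). The genotypes did not overlap in either gene, and Gzma varied the more among the DKO nodes. Klra8, the receptor Ly49H and 1 of a family of similar genes, stood at 2.24, 1.35 and 1.32 CPM against 4.48, 3.69 and 4.71 CPM (log2 fold change -1.36 ± 0.31, adjusted p = 0.042, 1 of 6 fits).

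T cell markers had 4 of 25 lower and 0 higher, and all 25 had a negative log2 fold change (median -0.53). Themis, a signalling protein of T cell development, stood at 22.1, 16.9 and 23.6 CPM in DKO and at 39.1, 45.1 and 47.1 CPM in DKO/hA-I nodes (log2 fold change -1.06 ± 0.16, adjusted p = 0.0162, 4 of 6 fits). Tcf7, the transcription factor TCF1 of naive and memory T cells, stood at 195, 151 and 176 CPM in DKO and at 275, 299 and 377 CPM in DKO/hA-I nodes (log2 fold change -0.87 ± 0.17, adjusted p = 0.0278, 2 of 6 fits). DKO replicate 2 was the lowest node in Themis and Tcf7. The coreceptor gene Cd4 was not called, at 277, 178 and 243 CPM against 279.7, 269.7 and 282 CPM (log2 fold change -0.25 ± 0.17, adjusted p = 0.412). Neither was Cd8b1, at 79.4, 37.9 and 72.3 CPM against 111, 116 and 126 CPM (log2 fold change -0.89 ± 0.25, adjusted p = 0.0794), but it was called without DKO replicate 2 (log2 fold change -0.64, adjusted p = 0.00835). B cell markers had 2 of 21 lower and 0 higher, where 2.92% of all genes were lower. Bank1, an adaptor of B cell receptor signalling, stood at 208, 167 and 166 CPM against 313, 354 and 357 CPM (log2 fold change -0.92 ± 0.14, adjusted p = 0.0162, 3 of 6 fits). The other, Ralgps2, stood at 198, 177 and 136 CPM against 252, 323 and 394 CPM (log2 fold change -0.92 ± 0.21, adjusted p = 0.0418, 1 of 6 fits). By node left out the lower members were 1, 4, 1, 0, 0 and 1 for NK cells. They were 3, 6, 1, 0, 0 and 1 for T cells and 8, 6, 0, 0, 0 and 1 for B cells. In a library, values are shares of all counts, so a rise of other cells' RNA lowers them too, and the 2 cannot be told apart.

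Receptors that position and retain lymphocytes in the node differed in direction. Among 16 genes of sphingosine-1-phosphate and oxysterol guidance, 3 rose and 2 fell. Over all genes 3.95% were higher and 2.92% lower, the background for each count in this paragraph. S1pr1, through which lymphocytes leave the node, stood at 206, 159 and 185 CPM in DKO and at 292, 322 and 313 CPM in DKO/hA-I nodes (log2 fold change -0.75 ± 0.14, adjusted p = 0.0239, 2 of 6 fits). Gpr183, the receptor for oxysterols that guides B cells and dendritic cells, stood at 60.7, 54.9 and 62.2 CPM in DKO and at 82.4, 93.4 and 81.9 CPM in DKO/hA-I nodes (log2 fold change -0.53 ± 0.12, adjusted p = 0.0404, 1 of 6 fits). S1pr2, which confines B cells to germinal centres, stood at 40.4, 69.1 and 52.7 CPM in DKO and at 20.01, 16.7 and 13 CPM in DKO/hA-I nodes (log2 fold change 1.70 ± 0.24, adjusted p = 0.014, 4 of 6 fits). The first pair was lower and S1pr2 higher in every DKO node than in any DKO/hA-I node. Of 22 genes of T cell activation, 2 rose and 0 fell. Pdcd1, the inhibitory receptor PD-1, stood at 20.7, 21.1 and 22.8 CPM in DKO and at 10.5, 10.9 and 10.8 CPM in DKO/hA-I nodes (log2 fold change 1.00 ± 0.14, adjusted p = 0.014, 3 of 6 fits). Cd44, the hyaluronan receptor of activated and memory cells, stood at 276, 326 and 355 CPM in DKO and at 187, 147 and 168 CPM in DKO/hA-I nodes (log2 fold change 0.93 ± 0.15, adjusted p = 0.0177, 2 of 6 fits). The inhibitory receptor Tigit, from the regulatory T cell list, stood at 19, 17.6 and 21.4 CPM against 10.4, 7.55 and 12.2 CPM (log2 fold change 0.95 ± 0.21, adjusted p = 0.0404, 1 of 6 fits). Foxp3, which defines regulatory T cells, was not called at 42.5, 26.2 and 49.1 CPM against 33.4, 28.2 and 38.8 CPM (log2 fold change 0.24 ± 0.24, adjusted p = 0.582). Markers of blood and high endothelial vessels had 3 of 22 lower and 0 higher. They were the growth factor receptor genes Kdr (log2 fold change -0.84, adjusted p = 0.0352, 2 of 6 fits) and Tek (-0.72, adjusted p = 0.0389, 1 of 6 fits), and Chst4 (-1.15, adjusted p = 0.0292, 1 of 6 fits), a sulfotransferase of high endothelial venules. Pecam1, a marker of all vessels, stood at 301, 266 and 261 CPM against 339.7, 383 and 408 CPM (log2 fold change -0.45 ± 0.13, adjusted p = 0.0837). Counts by node left out were 1, 7, 0, 1, 0 and 2 higher and 1, 3, 0, 0, 0 and 0 lower for guidance genes, 2, 5, 0, 0, 0 and 1 higher for activation genes and 0, 4, 0, 0, 0 and 1 lower for vessel markers.

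Smaller lists of other node cells gave few calls each. Over all genes 3.95% were higher and 2.92% lower, so counts of 1 or 2 alone say little about a list. Of 23 markers of conventional dendritic and Langerhans cells 2 rose and 0 fell, and both are also macrophage genes. Sirpa, the receptor for the signal CD47, stood at 829, 559.6 and 1075 CPM in DKO and at 356, 254 and 259.7 CPM in DKO/hA-I nodes (log2 fold change 1.501 ± 0.26, adjusted p = 0.021, 1 of 6 fits). Itgax, the integrin CD11c, stood at 544, 145 and 831 CPM in DKO and at 114, 86 and 101 CPM in DKO/hA-I nodes (log2 fold change 2.34 ± 0.54, adjusted p = 0.0468, 1 of 6 fits). DKO replicate 2 was the lowest DKO node in both and still above the DKO/hA-I nodes. Of 17 germinal centre and follicular helper genes 3 rose (S1pr2, Pdcd1 and Basp1, the last at 53.9, 69.7 and 71.7 CPM against 36, 19.8 and 26.3 CPM) and 1 fell (Gpr183). The median of that list was 0.88 with all nodes and turned to -0.18 without DKO replicate 2. Of 13 lymphatic vessel markers 1 rose, Pdpn, and 2 fell, Lyve1 and Ccrl1, a decoy receptor that removes chemokines, at 5.56, 6.26 and 5.12 CPM against 9.32, 21.4 and 12.4 CPM (log2 fold change -1.36 ± 0.32, adjusted p = 0.048, 1 of 6 fits). Of 12 regulatory T cell markers 1 rose, Tigit, and 1 fell, the receptor gene Gpr83, at 0.718, 0.845 and 0.706 CPM against 2.01, 3.15 and 3.1 CPM (log2 fold change -1.87 ± 0.34, adjusted p = 0.0236, 1 of 6 fits). Of 17 monocyte markers 0 rose and 1 fell, while 8 were higher and 2 lower at an unadjusted p under 0.05. For these markers DESeq2 called 6 higher and 2 lower, and voom 1 and 1. Of 6 megakaryocyte and platelet markers 1 rose, Pf4, a chemokine of platelets and of some macrophages, at 7.18, 5.58 and 17 CPM against 1.28, 3.15 and 1.28 CPM (log2 fold change 2.38 ± 0.54, adjusted p = 0.0424, 1 of 6 fits). Of 10 mast cell and basophil markers 0 were called by edgeR or voom and 1 in each direction by DESeq2, as at an unadjusted p under 0.05 in edgeR. The members called by node left out numbered 0, 3, 0, 0, 0 and 0 higher for dendritic cells and 3, 3, 0, 2, 0 and 2 higher for germinal centre genes.

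Plasma cell, neutrophil, cell cycle and unfolded protein response genes are the lists for which DKO replicate 2 was set apart, so the effect of leaving it out is given as a description. For plasma cell markers the median was 1.32 with all nodes and 0.32 without that node. It was 2.51 and 1.10 for neutrophil markers, 1.17 and 0.52 for cell cycle genes, and 1.00 and 0.41 for the unfolded protein response. Igj, the joining chain of secreted IgA and IgM, stood at 1323, 6211 and 1632 CPM in DKO and at 1311, 795 and 834 CPM in DKO/hA-I nodes (log2 fold change 1.64 ± 0.58, adjusted p = 0.133). Mki67, a nuclear protein of dividing cells, stood at 160.5, 844 and 222 CPM in DKO and at 183, 133 and 119 CPM in DKO/hA-I nodes (log2 fold change 1.49 ± 0.59, adjusted p = 0.167). S100a8, a calcium-binding protein of neutrophils, stood at 31.7, 409.6 and 92.5 CPM in DKO and at 42, 18 and 9.31 CPM in DKO/hA-I nodes (log2 fold change 2.93 ± 0.95, adjusted p = 0.108). In each, DKO replicate 2 stood far above the other 5 nodes, and DKO replicate 1 lay within the range of the DKO/hA-I nodes or next to it. The secretory chaperone Hsp90b1 showed the same order, at 838, 6562 and 1367 CPM against 1079, 739 and 663 CPM (log2 fold change 1.82 ± 0.71, adjusted p = 0.165). Few members passed: 2 of 17 plasma cell markers, 2 of 16 neutrophil markers, 2 of 44 cell cycle genes and 1 of 33 of the unfolded protein response, and 0 fell in any of these lists. For the cell cycle and the unfolded protein response these counts are near the 3.95% of all genes called higher, so the counts alone are no result about those lists. At an unadjusted p under 0.05 edgeR had 35 of 44 cell cycle genes and 23 of 33 of the unfolded protein response higher, and 0 lower in either. DESeq2 called 26 and 10 of them higher, and voom 2 and 0.

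Of the 7 members that passed, all but Csf3r also passed without DKO replicate 2. Sdc1, the plasma cell proteoglycan syndecan 1, stood at 77.8, 169 and 95 CPM in DKO and at 35.8, 22.5 and 21.4 CPM in DKO/hA-I nodes (log2 fold change 2.10 ± 0.33, adjusted p = 0.0177, 3 of 6 fits). Its log2 fold change without DKO replicate 2 was 1.70, adjusted p = 0.00403. Slamf7, a receptor of plasma cells and activated leukocytes, stood at 186, 214 and 231 CPM in DKO and at 112, 81.7 and 95.8 CPM in DKO/hA-I nodes (log2 fold change 1.12 ± 0.16, adjusted p = 0.0138, 4 of 6 fits). Tk1, the thymidine kinase of dividing cells, stood at 32.8, 40.9 and 32.9 CPM against 21.7, 20.7 and 18.2 CPM (log2 fold change 0.81 ± 0.15, adjusted p = 0.0258, 1 of 6 fits). E2f1, a transcription factor of S phase entry, stood at 17.9, 24 and 19.4 CPM against 12.2, 9.98 and 10.4 CPM (log2 fold change 0.91 ± 0.18, adjusted p = 0.031, 1 of 6 fits). P4hb, protein disulfide isomerase, stood at 407, 728 and 512 CPM against 314, 277 and 258 CPM (log2 fold change 0.96 ± 0.22, adjusted p = 0.0434, 2 of 6 fits). The neutrophil members that passed were Il1r2 and Csf3r. Il1r2, the decoy receptor for interleukin-1 that macrophages also make, stood at 8.61, 11.8 and 12.9 CPM against 3.65, 2.16 and 4.18 CPM (log2 fold change 1.74 ± 0.30, adjusted p = 0.0211, 3 of 6 fits). Csf3r, the receptor for granulocyte colony-stimulating factor, stood at 60.5, 98.7 and 87.5 CPM against 48.7, 29.7 and 25.8 CPM (log2 fold change 1.24 ± 0.28, adjusted p = 0.0413, 1 of 6 fits). Csf3r did not pass without DKO replicate 2 (log2 fold change 1.09, adjusted p = 0.0654). By node left out the higher members numbered 3, 4, 0, 2, 0 and 1 for plasma cells and 3, 1, 0, 1, 0 and 1 for neutrophils. They numbered 1, 10, 0, 0, 0 and 0 for the cell cycle and 1, 3, 0, 0, 0 and 0 for the unfolded protein response.

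**Figure D3:**
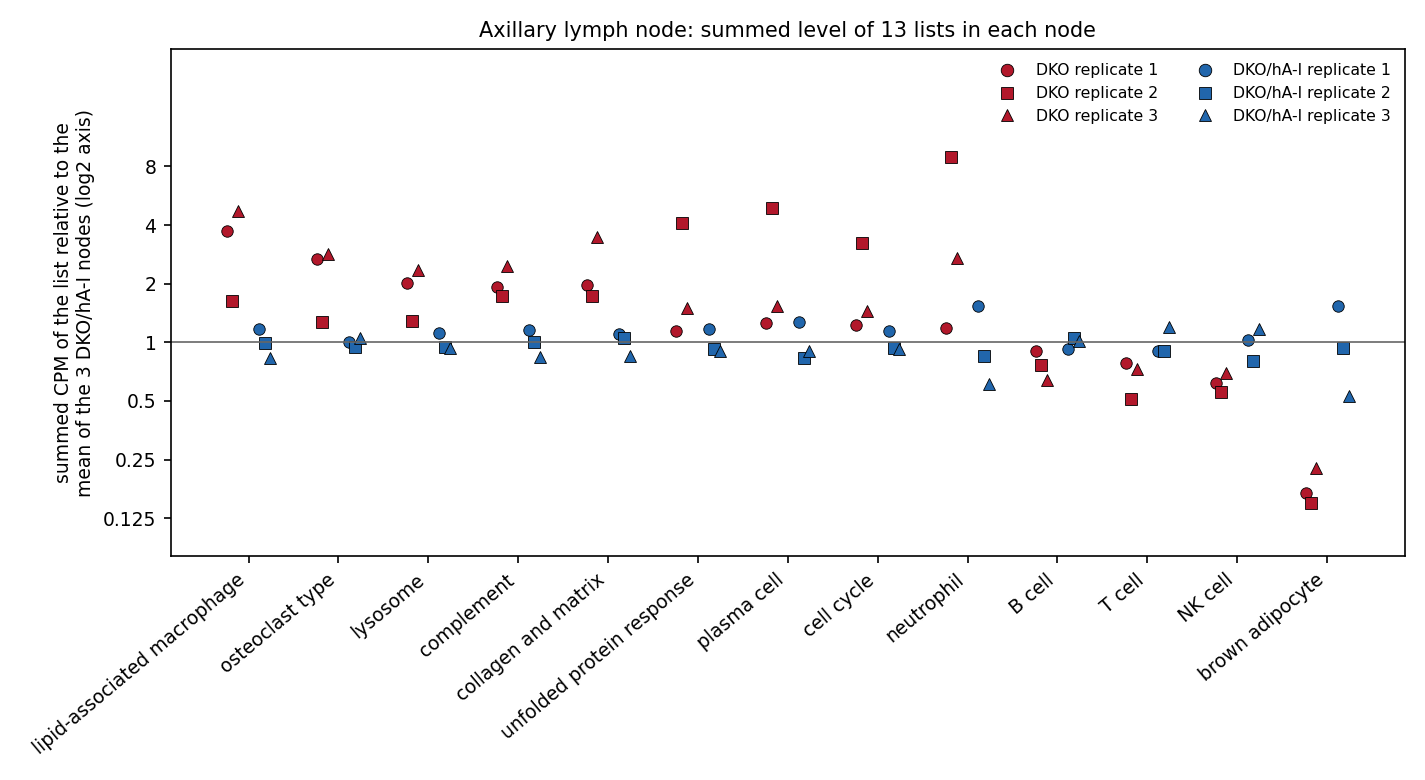
Summed level of 13 lists in each node, divided by the mean of the 3 DKO/hA-I nodes (logarithmic axis); red symbols are DKO nodes, blue symbols DKO/hA-I nodes, and the shape gives the replicate. DKO replicate 2 (red square) is the lowest DKO node for the lipid-associated list (1.62) and far above all others for plasma cell (4.92) and neutrophil markers (8.9).

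Interferon responses and antigen presentation by MHC class II gave no call with all 6 nodes: 0 of 27 type I interferon genes, 0 of 24 interferon gamma genes and 0 of 14 class II genes by edgeR, and by DESeq2 and voom the same. At an unadjusted p under 0.05 edgeR had 0 type I genes in either direction, 3 higher and 2 lower interferon gamma genes, and 1 higher and 2 lower class II genes. Stat2, a transcription factor of the type I response, stood at 275, 169 and 206 CPM in DKO and at 298, 155 and 296 CPM in DKO/hA-I nodes (log2 fold change -0.21 ± 0.28, adjusted p = 0.7). Trim30a, an interferon-induced gene, stood at 435, 347 and 352 CPM in DKO and at 579, 287 and 646 CPM in DKO/hA-I nodes (log2 fold change -0.42 ± 0.29, adjusted p = 0.414). In both, DKO/hA-I replicate 2 was the lowest of all nodes and the other DKO/hA-I nodes the highest, so the spread within that genotype exceeded the difference between genotypes. The class II gene H2-Eb1 stood at 3322, 1578 and 3879 CPM in DKO and at 1891, 1702 and 2005 CPM in DKO/hA-I nodes (log2 fold change 0.65 ± 0.31, adjusted p = 0.236). H2-Ab1 stood at 2391, 1182 and 2518 CPM in DKO and at 1479, 1298 and 1503 CPM in DKO/hA-I nodes (log2 fold change 0.51 ± 0.27, adjusted p = 0.299; without DKO replicate 2 0.78, adjusted p = 0.00738). DKO replicates 1 and 3 lay above all DKO/hA-I nodes and DKO replicate 2 below all of them. Of 14 class II genes, 5 were higher without DKO replicate 2, H2-Eb1 with a log2 fold change of 0.95, adjusted p = 0.00448. Without that node 3 of 24 interferon gamma genes were higher too, a share near the 10.9% of all genes, and 0 of 27 type I genes. Every other node left out gave 0 class II calls.

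Genes of early lymphocyte development did not move as one: of 8 tested, 4 had a positive and 4 a negative log2 fold change (median 0.16). Rag1 and Igll1, which are not usual products of a node, were higher in DKO nodes. Rag1, a subunit of the recombinase that assembles antigen receptor genes, stood at 13.6, 3.72 and 23.9 CPM in DKO and at 0.64, 0.539 and 0.214 CPM in DKO/hA-I nodes (log2 fold change 4.85 ± 0.75, adjusted p = 0.017, 3 of 6 fits). Igll1, part of the surrogate light chain of pre-B cells, was counted 118 times in the DKO nodes and 0 times in the others. Compared with 3 counts in all 3 nodes, the limit that 0 allows, it was at least 43.5-fold higher (adjusted p = 0.0288, 1 of 6 leave-one-out fits). Both were lowest among the DKO nodes in replicate 2. Igll1 (chromosome 16, 16860671 to 16863985, minus strand, GRCm38) lies near the pseudogene Rpl31-ps12 (16819749 to 16820123). A link between these 2 was not tested. The third member that rose, Cd93, is also a marker of endothelium and myeloid cells, at 102, 107 and 160.0 CPM against 53.2, 44 and 44.9 CPM (log2 fold change 1.38 ± 0.20, adjusted p = 0.0141, 4 of 6 fits). Of 8 members tested, 3 rose and 0 fell, against 3.95% of all genes higher and 2.92% lower. The counts by node left out were 2, 5, 2, 0, 0 and 1. Vpreb3 was not called, at 9.69, 16.4 and 14 CPM against 8.41, 11 and 9.96 CPM (log2 fold change 0.44 ± 0.24, adjusted p = 0.292). Among 30 heat shock and immediate early genes 3 rose and 0 fell. They included Atf3, a stress-induced transcription factor that limits macrophage inflammation, at 98.3, 21.1 and 151 CPM against 13, 8.72 and 11.5 CPM (log2 fold change 3.04 ± 0.63, adjusted p = 0.0337, 1 of 6 fits). Hspa8, the constitutive chaperone, was not called, at 2188, 2889.6 and 2137 CPM against 2457, 1705 and 1461 CPM (log2 fold change 0.36 ± 0.23, adjusted p = 0.373). Of 19 circadian clock genes only Bhlhe41, a repressor of transcription, passed, at 12.6, 18.1 and 13.8 CPM against 3.29, 2.97 and 2.89 CPM (log2 fold change 2.27 ± 0.22, adjusted p = 0.00729, 6 of 6 fits), and it passed in every fit. A count of 1 of 19 is near the 3.95% of all genes called higher, so it is no result about the list.

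Leaving out DKO replicate 2 brought 1326 genes past the threshold that had not passed with all 6 nodes, 1005 higher and 321 lower, and ended the call of 43. Genes that were high in DKO replicates 1 and 3 only led the higher ones. Cdkn1c, a cyclin-dependent kinase inhibitor of non-dividing cells, stood at 112, 4.56 and 87.1 CPM in DKO and at 6.03, 6.38 and 5.25 CPM in DKO/hA-I nodes (with all nodes log2 fold change 3.54 ± 0.91, adjusted p = 0.0621, and without DKO replicate 2 4.07, adjusted p = 5.35e-06). Slamf8, a receptor of activated macrophages, stood at 94, 35.8 and 113 CPM in DKO and at 31.1, 22 and 29.4 CPM in DKO/hA-I nodes (without DKO replicate 2 1.91, adjusted p = 0.000315). Npy, the neuropeptide Y gene, was counted 166 times in the DKO nodes and 3 times in the others, a ratio of 61.2 (95% counting interval 20.6 to 299.8). In DKO replicate 2 Cdkn1c lay below every DKO/hA-I node. Further genes of this kind were the lysosomal calcium channel Tpcn2 (1.61, adjusted p = 0.000221), the lysosomal chloride transporter Clcn7 (1.22, adjusted p = 0.00031), the small GTPase Rhoc (2.07, adjusted p = 0.000178) and H2-M2, a nonclassical class I gene (2.39, adjusted p = 0.000365). Among the lower genes Trim59 stood at 50.1, 79.5 and 43.3 CPM against 85.1, 90.4 and 87.4 CPM (without DKO replicate 2 -0.91, adjusted p = 0.00177). Cmah, which makes the sialic acid Neu5Gc, stood at 224, 435 and 209 CPM against 363, 532 and 402 CPM (-0.999, adjusted p = 0.0075). In both, DKO replicate 2 lay among the DKO/hA-I nodes or near them. These calls rest on 2 DKO nodes.

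Genes of fat were treated apart from those of node cells, since a dissected node carries variable amounts of the fat around it. Fat markers had the most negative medians of all lists. Of 28 adipocyte markers tested, 22 fell and 0 rose (median -4.17), and of 18 markers of brown fat 14 fell and 0 rose (median -4.21). Adipoq, the adipocyte hormone adiponectin, stood at 1.52, 4.23 and 2.03 CPM in DKO and at 87.7, 174 and 40.4 CPM in DKO/hA-I nodes (log2 fold change -5.38 ± 0.64, adjusted p = 0.00993, 6 of 6 fits). Plin1, which coats the lipid droplet of the fat cell, stood at 1.26, 3.55 and 3.09 CPM in DKO and at 93.9, 127 and 37.2 CPM in DKO/hA-I nodes (log2 fold change -5.08 ± 0.56, adjusted p = 0.00903, 6 of 6 fits). Pck1, the enzyme that supplies glycerol for triglyceride storage, stood at 2.96, 11.7 and 5.56 CPM in DKO and at 271, 350.4 and 201 CPM in DKO/hA-I nodes (log2 fold change -5.43 ± 0.48, adjusted p = 0.00729, 6 of 6 fits). DKO/hA-I replicate 3 was the lowest DKO/hA-I node in all 3 and still far above every DKO node. Klb, the co-receptor for the hormone FGF21, was counted 2 times in the DKO nodes and 228 times in the others, a ratio of 103 (95% counting interval 28.2 to 856). For brown fat, Cidea, a protein of small lipid droplets, stood at 0.448, 1.18 and 4.32 CPM in DKO and at 187, 201 and 64.5 CPM in DKO/hA-I nodes (log2 fold change -6.17 ± 0.75, adjusted p = 0.0106, 6 of 6 fits). Cox8b, a subunit of cytochrome oxidase in brown fat and muscle, stood at 0.179, 0.507 and 0.883 CPM in DKO and at 45.1, 33.9 and 13.4 CPM in DKO/hA-I nodes (log2 fold change -5.84 ± 0.64, adjusted p = 0.00901, 6 of 6 fits). Ucp1, the uncoupling protein that defines brown fat, which was singled out after its values were seen, stood at 0.718, 7.1 and 7.77 CPM in DKO and at 431, 122 and 115 CPM in DKO/hA-I nodes (log2 fold change -5.46 ± 0.87, adjusted p = 0.0177, 3 of 6 fits). It did not pass without DKO replicate 2 (-5.71, adjusted p = 0.0728). The 5 adipocyte members with a positive log2 fold change included Lpl and Cd36, which macrophages also express. By node left out the lower members numbered 16, 17, 14, 15, 16 and 21 for adipocyte and 10, 12, 7, 9, 9 and 15 for brown fat markers.

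Among genes of fatty acid metabolism all calls were lower. Of 19 genes of fatty acid and triglyceride synthesis, 14 fell and 0 rose (median -3.08), and of 45 genes of fatty acid oxidation and the respiratory chain, 15 fell and 0 rose (median -0.76). Scd1, the desaturase that makes oleic acid, stood at 835, 766 and 865 CPM in DKO and at 8414, 9462 and 4019 CPM in DKO/hA-I nodes (log2 fold change -3.15 ± 0.32, adjusted p = 0.00742, 6 of 6 fits). Fasn, fatty acid synthase, stood at 143, 254 and 242 CPM in DKO and at 4737, 5192 and 1299 CPM in DKO/hA-I nodes (log2 fold change -4.14 ± 0.54, adjusted p = 0.0125, 5 of 6 fits). Dgat2, which joins the last fatty acid to triglyceride, stood at 5.74, 13.4 and 11.1 CPM in DKO and at 211, 216 and 68.6 CPM in DKO/hA-I nodes (log2 fold change -4.06 ± 0.51, adjusted p = 0.0118, 6 of 6 fits). The DKO nodes lay close together in Scd1 and less so in Fasn and Dgat2, and DKO/hA-I replicate 3 was the lowest of its group in all 3. Acadl, a dehydrogenase of mitochondrial fatty acid oxidation, stood at 104, 100.1 and 103 CPM in DKO and at 354, 301 and 174 CPM in DKO/hA-I nodes (log2 fold change -1.43 ± 0.25, adjusted p = 0.0211, 2 of 6 fits). Acadm and Hadhb of the same pathway had log2 fold changes of -2.03 and -1.93 (adjusted p = 0.0125 and 0.0155, in 6 and 3 of 6 fits). Pdk4, a kinase that turns cells from glucose to fatty acid oxidation, stood at 10.2, 17.9 and 16.6 CPM in DKO and at 224, 234 and 202 CPM in DKO/hA-I nodes (log2 fold change -3.90 ± 0.23, adjusted p = 0.00127, 6 of 6 fits). Pdk4 hardly varied among the DKO/hA-I nodes. Genes of the respiratory chain expressed by every cell differed less, such as Atp5b at 705, 866 and 722 CPM against 1359.8, 1169 and 753 CPM (log2 fold change -0.52 ± 0.22, adjusted p = 0.202). Of the 65 tested genes in the adipocyte, brown fat and lipid synthesis lists, 50 were among the 409 lower genes and 0 among the 553 higher ones. With these lists taken out of the table, 494 genes were higher and 410 lower of 13947 tested, and with library sizes computed without them 501 and 462. By node left out the lower members numbered 13, 9, 5, 8, 8 and 15 for lipid synthesis and 4, 20, 1, 2, 1 and 25 for fatty acid oxidation and the respiratory chain.

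**Figure D4:**
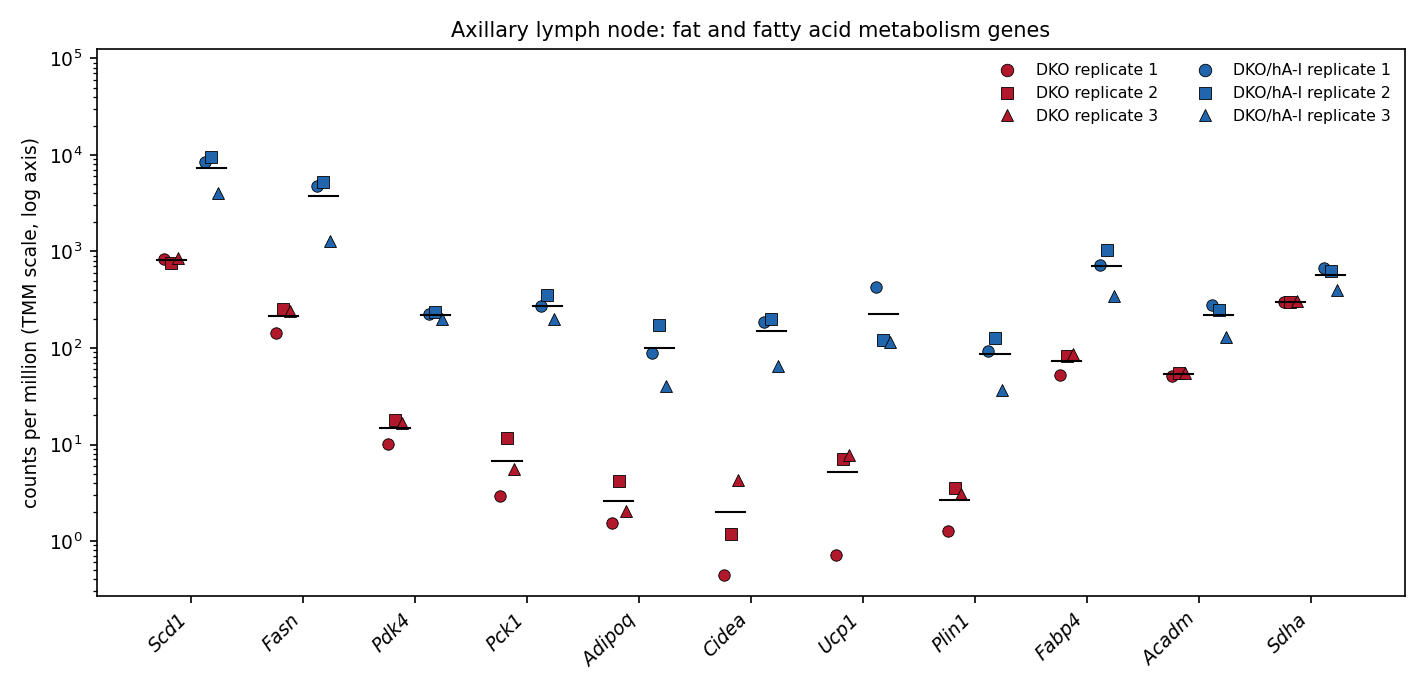
Level in CPM (counts scaled to library size with TMM, logarithmic axis) of 11 genes of fat and fatty acid metabolism in each node, red for DKO and blue for DKO/hA-I, with bars at the mean of 3; Fabp4, Ucp1 and Sdha were added after their values were seen. Every DKO node lies below every DKO/hA-I node, and DKO/hA-I replicate 3 (blue triangle) is the lowest of its group in each gene (Adipoq, 1.52, 4.23 and 2.03 CPM against 87.7, 174 and 40.4 CPM).

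Markers of other tissues that could come with a node were sparse. Of 8 skeletal muscle, 3 skin and mammary epithelium and 10 nerve markers tested, 1 muscle and 1 skin gene rose and 1 nerve gene fell. 5 of the 17 skin and mammary markers were at 0 in every node, and the list summed to 23.5, 9.64 and 25.1 CPM in DKO and 12.9, 8.45 and 12.1 CPM in DKO/hA-I nodes. The skin gene that rose was Trim29, a keratin-associated protein of epithelia, at 17.3, 2.7 and 17 CPM against 0.274, 1.44 and 1.39 CPM (log2 fold change 3.603 ± 0.77, adjusted p = 0.0376, 1 of 6 fits), with DKO replicate 2 close to the DKO/hA-I nodes. S100b, a calcium-binding protein of Schwann cells that fat cells also express, was the nerve gene, at 0.269, 0.338 and 0.177 CPM against 8.77, 2.97 and 1.61 CPM (log2 fold change -4.10 ± 0.80, adjusted p = 0.0299, 2 of 6 fits). Of 6 erythroid markers 0 were called by edgeR, 0 by DESeq2 and 0 by voom, with 2 lower at an unadjusted p under 0.05. The haemoglobin gene Hba-a1, which has an identical copy, stood at 30.7, 30.4 and 8.91 CPM against 53.4, 174 and 47.3 CPM (log2 fold change -1.99 ± 0.63, adjusted p = 0.102), highest in DKO/hA-I replicate 2. The part of fat, blood or skin in any other result was not tested beyond the fits without the fat lists.

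The same contrast was set against that of the spleen in a fit of all 12 libraries. Spleen directions are those of the labels. The node contrast differed from the spleen contrast for 487 of 14608 genes (3.33%), 298 above it (2.04%) and 189 below (1.29%), and in this fit 1 gene, Rpl31-ps12, was called within spleen. Of 25 lipid-associated macrophage genes, 14 lay above and 0 below, with a median spleen log2 fold change of 0.02. The counts above and below were 11 and 0 of 50 for lysosomal genes, 10 and 1 of 22 for complement, 14 and 0 of 43 for collagens, and 8 and 1 of 23 for reticular stroma. Of 28 adipocyte markers 13 lay below. For cholesterol synthesis 0 of 24 genes differed between the tissues, with medians of -0.38 in node and -0.15 in spleen, so a node-specific fall of this list was not shown. Marco, lower in DKO nodes, stood at 255, 219 and 263 CPM in spleens labelled DKO and 172, 207 and 217 CPM in those labelled DKO/hA-I (difference -3.95 ± 0.44, adjusted p = 0.00215). Every spleen labelled DKO thus lay above every spleen labelled DKO/hA-I for Marco, opposite to the node, though Marco was not called within spleen. The tissue difference was called for 1160 genes without node DKO replicate 2 and for 253 by voom.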

How the data were processed

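RNA of 6 axillary nodes was compared, and the 6 spleens entered only the tissue difference. The authors deposited whole-number read counts per gene; per the submitters' processing notes Trimmomatic, Bowtie, TopHat and Cuffdiff were used with GRCm38/mm10. Versions, annotation, counting tool and strand use were not given in the sources used here, so overlapping and antisense genes cannot be told apart. The authors' 6 comparison columns per file were not used. The 23284 genes were filtered with filterByExpr (minimum count 10, total 15) and tested with edgeR 4.0.16 in R 4.3.3 (TMM, robust quasi-likelihood, Benjamini-Hochberg adjusted p under 0.05). Alternatives were RLE, upper quartile or no scaling, other filters, DESeq2 1.42.0, voom (limma 3.58.1), omission of fat lists or of each node, and a replicate block. Gene members and lists were chosen with earlier results of these data known. Named genes are the called genes of smallest adjusted p (30 per direction), up to 8 called and 4 uncalled members per list, 15 per direction called only without DKO replicate 2, and 10 per direction from the tissue difference, except where said; some genes that fall under the rule are not reported here. On simulated data for the node comparison (13911 genes) the test recovered 55% of 100 genes changed 2-fold and 96% of 100 changed 4-fold, with 8 false among 159 calls. The changed genes excluded those of low mean level. Each gene varied on its own, so no simulated node deviated across many genes as DKO replicate 2 did. Gene coordinates (GENCODE vM21, GRCm38) matched 12916 of 14296 symbols (90.3%). Libraries of a genotype differed by more than counting noise (chi-square per degree of freedom 12.5 to 59.9). Animal codes differ between libraries, and litter and cage are unstated. Counting intervals are 95% and cover counting error only.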

Additional observations from a re-analysis of the deposited data

Results flagged for a closer look

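The genotype contrast differed between node and spleen for 487 genes, by edgeR's test of the difference itself over all 12 libraries with adjusted p under 0.05, and spleen directions are those of its labels. A difference is the node log2 fold change minus the spleen log2 fold change. Of the genes named here only Rpl31-ps12 was called within spleen. Spleen values could still lie apart, opposite to the node, as for Ceacam2 at 14.4, 11.6 and 13.1 CPM in spleens labelled DKO and 6.56, 6.77 and 7.38 CPM in those labelled DKO/hA-I. They also lay apart and opposite to the node for Ccr1, Clec4d, Gsta4, Marco, Ms4a6d, Rarres1, Tlr13, Ucp3 and Rpl31-ps12. In the rest, such as Scd1, they overlapped. All were chosen by the test of the difference, a choice that favours opposite directions. Every difference given here would change if the labels of 1 tissue were exchanged.

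Above the spleen contrast stood the following genes: the IgG receptor Fcgr3 (2.23), the chemokine receptor Ccr1 (2.80), the C-type lectin Clec4d (3.47), the nucleic acid sensors Tlr8 (2.67) and Tlr13 (2.40), Ms4a6d (2.25), the prostaglandin transporter Slco2a1 (1.45), the Wnt inhibitor Frzb (3.51) and Rarres1 (3.23). Below it stood Marco (-3.95), Siglech (-2.47) and Ceacam2 (-2.90), an adhesion molecule. Also below were Scd1 (-3.08) of the lipid synthesis list, Pdk4 (-3.95), Ucp3 (-5.06), the potassium channel Kcnk3 (-4.89), Clstn3 (-5.29) and the glutathione transferase Gsta4 (-3.72). Fat markers were lower in DKO nodes too, and the part of surrounding fat in these differences was not tested. Rpl31-ps12 differed by 17.84 as labelled, a value that would not stand if the labels of 1 tissue were exchanged, with a node log2 fold change of 9.37 and a spleen log2 fold change of -8.47 (adjusted p = 1.73e-08).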

How the results depend on the processing

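The 2 genotypes share replicate numbers 1 to 3, but nodes of the same number did not deviate together (correlations -0.142, 0.0408 and -0.0354), so the numbers were not treated as pairs. With the replicate block, 221 genes were higher and 217 lower, 421 of them among the 962. DESeq2 called 1191 higher and 791 lower, voom 389 and 310. Leaving out 1 node gave 29 to 1555 higher and 73 to 690 lower. Counts with other scalings, filters or without fat lists stayed within 1.5 times, but scaling by library size only turned the split to 475 higher and 544 lower, 46.6% higher against 57.5%, while the median of all genes moved to -0.06. For the tissue difference of 487 genes, RLE gave 481, a filter of 1 CPM 487, the replicate block within tissue 152, voom 253 and leaving out node DKO replicate 2 1160. Of the called genes named, 161 in all, 36 were called in every leave-one-out fit and 55 lost their call with the replicate block, and none reversed under any alternative run. The fit without immunoglobulin and T cell receptor segments was not run because the table lists none. With 3 nodes a genotype and 5911835 counts in the shallowest, changes of 2-fold were recovered in 55% of simulated cases, so a gene not called may still differ. That share does not cover genes of low mean level, nor a node that deviates across many genes.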

Other observations

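Called genes were unevenly spread over the chromosomes, counted after the calls were seen and given with no test. Of 647 tested genes on chromosome 6, 47 were higher in DKO and 25 lower, which is 11.1% called, against 4.24% (chromosome 17) to 8.06% (chromosome 3) on the other autosomes and 6.4% on the X chromosome. Between 120 and 130 Mb of chromosome 6 (GRCm38), 17 of 120 tested genes were higher and 4 lower. That stretch holds clustered families whose members are neighbours, among them the myeloid C-type lectin genes Clec4a2, Clec4a3, Clec4b1, Clec4d, Clec7a and Clec12a, which were all among the called genes there, as were the complement genes C1ra, C1rb and C3ar1 and the protease inhibitor gene A2m. Between 40 and 50 Mb, 6 of 43 were higher and 2 lower, with Gpnmb, Clec5a, Tmem176a and Tmem176b among them. Neighbouring and related genes can share reads and regulation and are not independent, and neither was tested. Genes in this paragraph other than those described above were chosen after their values were seen.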
